A study of Carassius auratus with 5 samples.

Results

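Isotocin is the fish counterpart of oxytocin, a short peptide hormone that is cut from a larger precursor together with neurophysin, the carrier protein that accompanies it in secretory granules. In teleost fish the precursor is made by neurosecretory neurons of the preoptic area, at the border of telencephalon and hypothalamus, whose axons release the peptide in the pituitary and within the brain. There it is known for roles in social and reproductive behavior, and its synthesis is tied to sex steroids in several vertebrates.

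The array held 6 cDNA clones whose spot name contains the word isotocin, out of 8099 clones in all, and these 6 clones are described here with both of their spots on all 5 arrays (12 spots per array). The names of 4 clones are identical, itnp (isotocin neurophysin), for clones 02e01, 02e11, 02j22 and 02k01 of source plate 02. Clone 03f07 of plate 03 is named isotocin precursor, and clone 61l10 of plate 61 is named as an isotocin-neurophysin IT 1 precursor. The opening digits of a clone's identifier give the plate it was printed from. The words vasotocin, vasopressin, oxytocin, mesotocin and neurophysin matched no further clone, so that vasotocin and the receptors of either peptide are not analysed here.

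The telencephalon was taken from female goldfish (Carassius auratus) that were sexually mature. Each of the 5 arrays carried 1 independent group of fish exposed to fadrozole in the water at 50 µg/L, labeled with Cy3, against 1 pool of unexposed control fish that all arrays share, labeled with Cy5. Fadrozole inhibits aromatase, the enzyme that turns androgens into estrogens. The pool is 1 sample, so the spread between arrays leaves out the spread among control fish. Every array had the same dye orientation, so that a dye difference of a clone and an effect of exposure cannot be told apart. The labels do not say how many fish each group or the pool held.

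A value below is the log2 ratio of fadrozole over control after loess normalization of each array, averaged over the 2 spots of a clone, so that a negative value means less signal in exposed fish. Of the 8078 clones tested, all 6 isotocin clones among them, 164 (2.03%) were called, 34 higher (0.421%) and 130 lower (1.61%), at an adjusted p under 0.05 in limma's moderated test. A spot was counted above its local background where it exceeded that background by more than 2 of its SDs. By that count 22.7% to 64.8% of an array's clone spots passed in the fadrozole channel, against 79.3% to 90.7% in the control channel. As a check of the tissue, ependymin, an abundant brain protein named EPD on the array, gave signal above nearly all empty spots for clones such as 02k11 (10 of 10 spots in both channels), as did a brain aromatase clone (03k22, 10 of 10 in both). Another brain aromatase clone (03p04) had 1 of 10 such spots in the fadrozole channel and 0 of 10 in the control channel, and a cyp19 clone (03n04) had 0 of 10 in both. Of 3 GFAP clones, 1 had 0 of 10 such spots in either channel (03p15) and the other two had 2 and 4 in the fadrozole channel and 1 and 2 in the control channel. Precision is limited by there being 5 arrays.

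All 6 isotocin clones had mean log2 ratios below 0, as had 4122 of all 8078 tested clones. Of the 6, 1 was called, lower in fadrozole fish, where 1.61% of all tested clones were. Plate 02, the source of 4 of the 6, had means below 0 for 359 of 384 clones and 24.5% called lower. The called clone was 02e11. Its log2 ratios on arrays 1 to 5 were -0.49, -0.74, -0.86, -0.03 and -0.68, below 0 on 5 of 5 arrays. Array 4 lay near 0 and apart from the other 4. The mean was -0.56 ± 0.32 (SD, n = 5), or 1.48-fold lower, with a 95% interval of -0.83 to -0.30 and an adjusted p of 0.0489 in limma. Among all tested clones 618 (7.65%) were below 0 on all 5 arrays.

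The other 3 clones of the same name were nearer to 0. Clone 02e01 gave -0.21, -0.67, -0.21, 0.21 and -0.07 on arrays 1 to 5, a mean of -0.19 ± 0.32 (limma adjusted p = 0.519). Clone 02j22 gave -0.01, -0.54, -0.23, 0.12 and -0.12, a mean of -0.16 ± 0.25 (limma adjusted p = 0.536). Both were below 0 on 4 of 5 arrays, lowest on array 2 and above 0 on array 4. Clone 02k01 gave -0.08, -0.60, -0.06, 0.20 and 0.24, a mean of -0.06 ± 0.34 (limma adjusted p = 0.878). It was above 0 on arrays 4 and 5, and its interval of -0.33 to 0.21 does not reach the mean of 02e11. The interval of 02e01 ran from -0.45 to 0.07 and that of 02j22 from -0.39 to 0.07.

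The 2 clones from other plates did not pass the test. Clone 61l10 gave -0.08, -0.75, -0.12, 0.06 and 0.18, a mean of -0.14 ± 0.36 (limma adjusted p = 0.669). Most of that mean came from array 2. Without array 2 it was 0.01. Clone 03f07 gave -0.10, -0.11, 0.05, -0.13 and -0.08, a mean of -0.08 ± 0.07 (limma adjusted p = 0.695). In the reported fit its ratios varied least of the 6 clones over the arrays, and its interval ran from -0.24 to 0.09. With background not subtracted its mean was -0.29, outside that interval. From the lowest mean to the highest the order in the reported fit was 02e11, 02e01, 02j22, 61l10, 03f07 and 02k01. The 5 clones after 02e11 differed from each neighbor in that order by less than their SD over arrays.

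**Figure D1:**
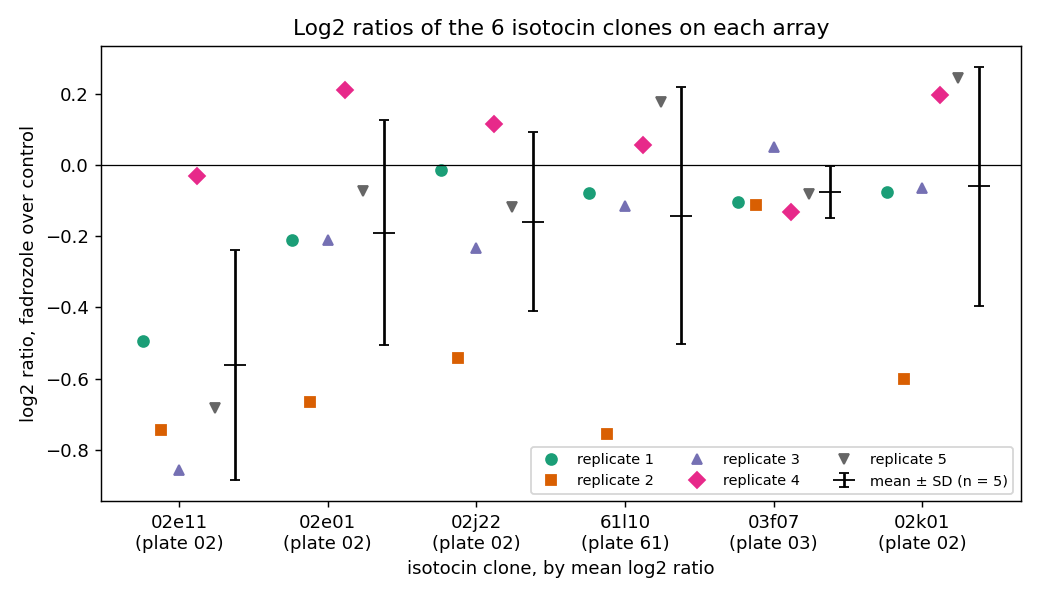
Log2 ratio of fadrozole over control (vertical axis) for each isotocin clone (horizontal axis, in order of the mean), with 1 symbol per array and the mean ± SD over 5 arrays in black. Clone 02e11 lies lowest at -0.56, replicate 2 is the lowest array for 4 of the 6 clones, and replicate 4 lies above 0 for 4 of the 6.

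Array by array, the number of isotocin clones below 0 was 6, 6, 5, 2 and 4 of 6 for arrays 1 to 5. Over all tested clones that share stayed between 49.2% and 51.6% on each array, as loess normalization centers each array near 0. Plate 02, the source of 4 of the 6, had means below 0 for 359 of its 384 clones. Below the median of their own plate were 3, 6, 2, 1 and 2 of the 6 isotocin clones on arrays 1 to 5. The mean log2 ratio over the 6 clones was -0.16, -0.57, -0.24, 0.07 and -0.09 on arrays 1 to 5, which is -0.20 ± 0.24 over the arrays. Array 2 was therefore lowest for the family as a whole and array 4 highest. Without array 2 the family mean was -0.11, that of 02e01 -0.07, that of 02j22 -0.06 and that of 02k01 0.08. With 02e11 left out, the mean of the 5 other clones was -0.13 ± 0.24, and it was below 0 on 3 of 5 arrays. Clone 02e11 lay below the mean of the 3 other clones of its name on each array, by -0.43 ± 0.26. That difference is a description without a test, because 02e11 was picked out after its values were seen.

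The clones followed each other over the arrays to different degrees. Pearson's r over the 5 arrays, a description over few points that share hybridizations, was 0.93 between 02e01 and 02j22, 0.93 between 02e01 and 02k01, and 0.86 between 02j22 and 02k01. Clone 61l10, from another plate, had r of 0.99 with 02k01 and 0.89 with 02e01. Clone 02e11 had r of 0.46 to 0.75 with the other clones of its name and 0.37 with 61l10. Clone 03f07 had r between -0.66 and 0.11 with the other 5.

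Many isotocin spots were no brighter than empty spots. The spots of 02e11 had mean intensities of 581, 457, 633, 469 and 169 scanner units in the fadrozole channel of arrays 1 to 5, against 399.5, 483, 381, 159 and 364 in the control channel. These are intensities before background correction and normalization, when the channels are not yet on one scale. The median clone spot read 298, 220, 386, 322 and 122 in the fadrozole channel of the same arrays, against 78.7, 88.4, 79.6, 63.0 and 96.4 in the control channel. Empty spots had medians of 266, 170.3, 311, 287 and 98.2 in the fadrozole channel, against 41.6, 35.2, 0, 15.7 and 49.7 in the control channel. In both channels of every array 02e11 read above the median clone spot and the median empty spot, and empty spots lay closer to the median clone spot in the fadrozole channel.

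Against the 95th percentile of the 776 empty spots of the same array and channel, 8 of 10 spots of 02e11 were brighter in the fadrozole channel and 9 of 10 in the control channel. For the other 5 clones together the counts were 13 of 50 in the fadrozole channel and 15 of 50 in the control channel. Clone 03f07 had 0 of 10 in either channel, so that its narrow ratios near 0 came from spots within the range of empty ones. Clone 61l10 had 1 of 10 in the fadrozole channel and 3 of 10 in the control channel. Over all clone spots the share was 19.3% to 47.1% in the fadrozole channel and 22.2% to 40.0% in the control channel. Of the 60 isotocin spots, 21 in the fadrozole channel and 52 in the control channel were brighter than their local background by 2 of its SDs, and 3 control spots were listed at an intensity of 0 (1 of 02j22 and 2 of 03f07).

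**Figure D2:**
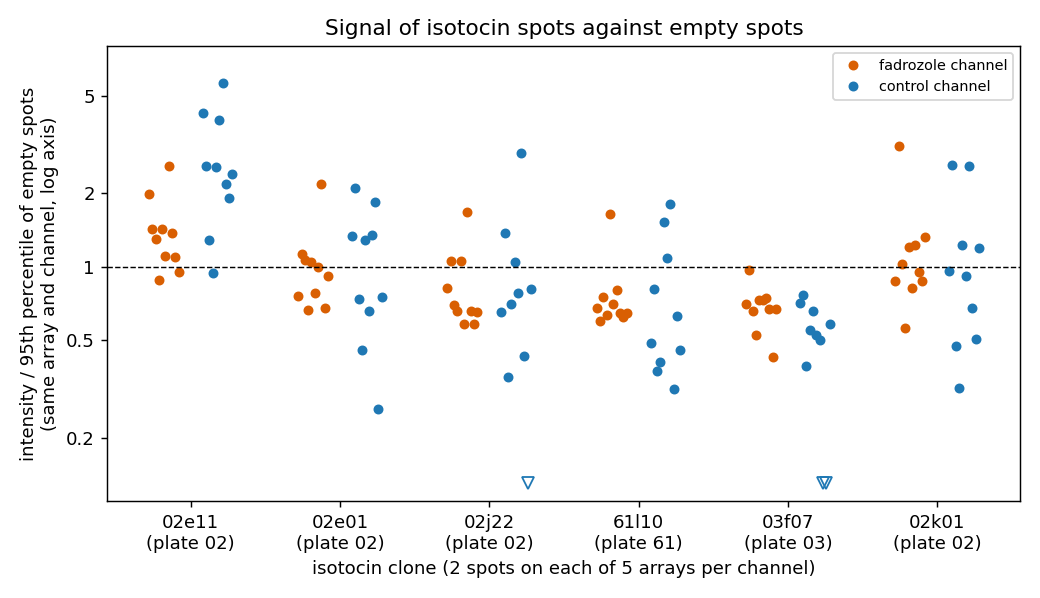
Intensity of every isotocin spot divided by the 95th percentile of the empty spots of the same array and channel (log axis), for the fadrozole channel (left of each pair) and the control channel (right). The dashed line marks 1 and open triangles mark control spots listed at 0. Clone 02e11 has 8 of 10 fadrozole and 9 of 10 control spots above the line, and 03f07 has 0 in both.

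The 2 spots of a clone on one array also differed. For 02e11 they differed by 0.39 on average and by up to 0.57 in log2 ratio. For 61l10 the largest gap was 0.63, on array 2, where its spots gave -0.44 and -1.07. Single spots of 02e11 ran from -1.10 to 0.12, and those of 02k01 from -0.92 to 0.55.

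The source plates differed in their typical ratio. The 380 other clones of plate 02 had a median of -0.35 ± 0.15 over the arrays, against -0.04 ± 0.04 for plate 03 and -0.003 ± 0.025 for plate 61. On plate 02, 94 of 384 clones (24.5%) were called lower, against 36 of 7694 clones (0.468%) elsewhere. The isotocin clones called lower were 1 of 4 on plate 02 and 0 of 2 on the other plates, a share on plate 02 close to that of the plate as a whole. Clone 02e11 was the 58th lowest of 384 clones on plate 02, and 02e01, 02j22 and 02k01 were 292nd, 309th and 344th.

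Measured from the median of its own plate on each array, 02e11 lay at -0.09, -0.34, -0.32, 0.13 and -0.43, a mean of -0.21 ± 0.23 that was below 0 on 4 of 5 arrays. An exact sign-flip permutation over the 5 arrays, two-sided, gave p = 0.1875, and 0.0625 is the smallest p that 5 arrays can give, so that no such test could pass the threshold. The other 3 clones of plate 02 lay above the median of their plate, at 0.16 ± 0.25 for 02e01 (exact p = 0.25), 0.19 ± 0.21 for 02j22 (exact p = 0.1875) and 0.29 ± 0.28 for 02k01 (exact p = 0.125). Each of the 3 was above it on 4 of 5 arrays, array 2 being the exception. Clone 03f07 was at -0.04 ± 0.09 (exact p = 0.375) and 61l10 at -0.14 ± 0.37 (exact p = 0.625). The mean over the 6 clones, taken this way, was 0.04 ± 0.19, above 0 on 4 of 5 arrays. The sign of the family mean thus turned when the plate median was taken out. That median was taken over clones of all signal levels. The dimmest 128 clones of plate 02, which include 02e01, 02j22 and 02k01, had a median log2 ratio of -0.19.

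**Figure D3:**
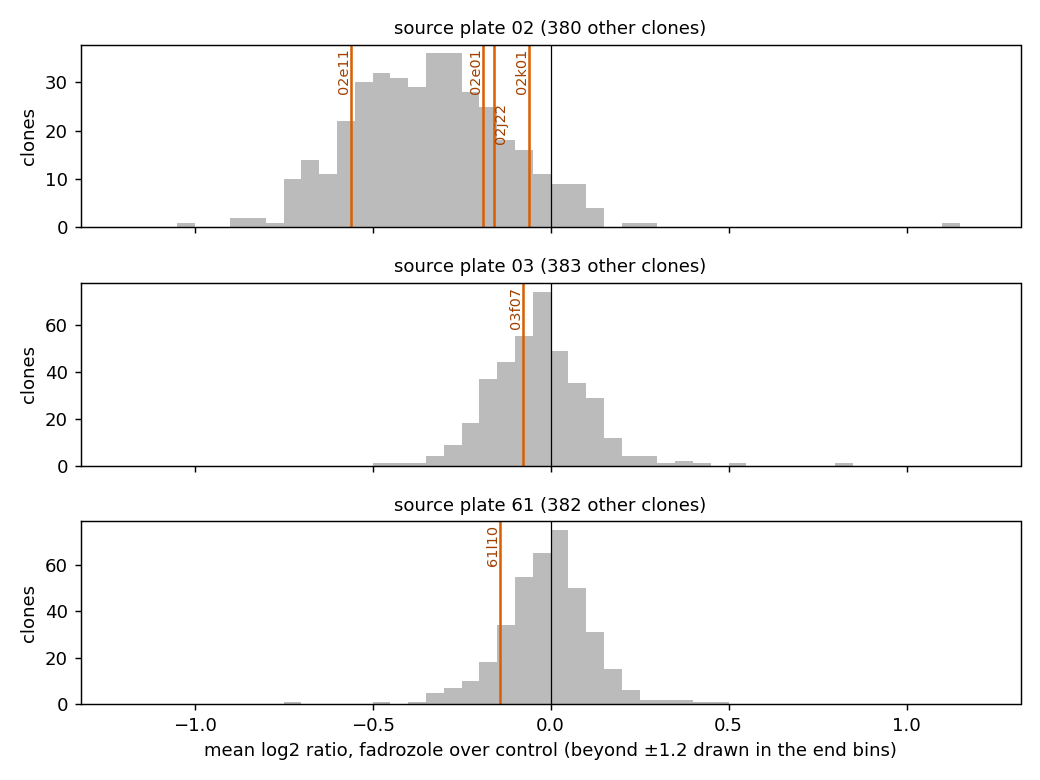
Number of clones (vertical axes) by mean log2 ratio of fadrozole over control (horizontal axis) for the other clones of source plates 02, 03 and 61, with each isotocin clone as an orange line. The histogram of plate 02 lies left of 0, with 02e11 on its low side and the other 3 isotocin clones on its high side.

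Before plates were taken into account, the 4 isotocin clones of plate 02 averaged -0.24 ± 0.28 and the 2 of plates 03 and 61 averaged -0.11 ± 0.19. The difference within arrays was -0.13 ± 0.18, negative on 4 of 5 arrays (exact sign-flip permutation, two-sided, p = 0.1875). After centering each clone on its plate, the difference was 0.20 ± 0.11 and was positive on 5 of 5 arrays (exact sign-flip permutation, two-sided, p = 0.0625, the smallest that 5 arrays allow). This centred difference was not among the tests set in advance. It rests on plate medians taken over clones of all signal levels.

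Ratios on plate 02 also moved with signal. Split by average intensity into sets of 128 clones, the brightest set had a median log2 ratio of -0.46 with 45 clones called lower, the middle set -0.37 with 39, and the dimmest set -0.19 with 10. Clone 02e11 belonged to the brightest set (122nd of 384) and 02e01, 02j22 and 02k01 to the dimmest (309th, 347th and 292nd). The part of signal and plate in the difference between 02e11 and its 3 namesakes was not tested. Clones of one name also differed for other genes of the plate. Of 13 gene names with at least 3 clones on plate 02, isotocin among them, 10 had a called clone and 0 had all of their clones called. Of all single clones on the plate, 24.5% were called lower. The distance from the lowest to the highest clone had a median of 0.35 over the 13 names. It was 0.50 for isotocin, which only 2 of the 13 exceeded.

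The call of 02e11 depended on single arrays and on processing. Leaving out array 4 kept it, at -0.69 (limma adjusted p = 0.0228), while leaving out array 1, 2, 3 or 5 ended it, with means of -0.49 to -0.58 and limma adjusted p from 0.122 to 0.163. Taking out the plate median in the fit across all clones left -0.21 (limma adjusted p = 0.445). With the median of the empty spots as the background level, an alternative chosen after seeing the data, the mean was -0.29 (limma adjusted p = 0.692). There 03f07 (-0.40), 61l10 (-0.34) and 02j22 (-0.33) lay lower than 02e11, and 02e01 (-0.22) and 02k01 (0.13) lay higher. The direction of 02e11 was the same in all of the 20 alternative fits run for it, and 7 of them kept the call. In part that direction was fixed in advance. It could not turn when 1 array was left out, as every array was below 0. With no filter, an intensity trend with robust fit, or duplicate spots kept apart, the mean stayed at -0.56 and only the test changed. Calls over the whole array fell too, from 164 to 1 without array 1, 0 without array 2 or 3 and 99 without array 5. They were 0 with each plate centred and with the empty-spot level. In a fit with 0 calls the loss was not particular to 02e11.

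**Figure D4:**
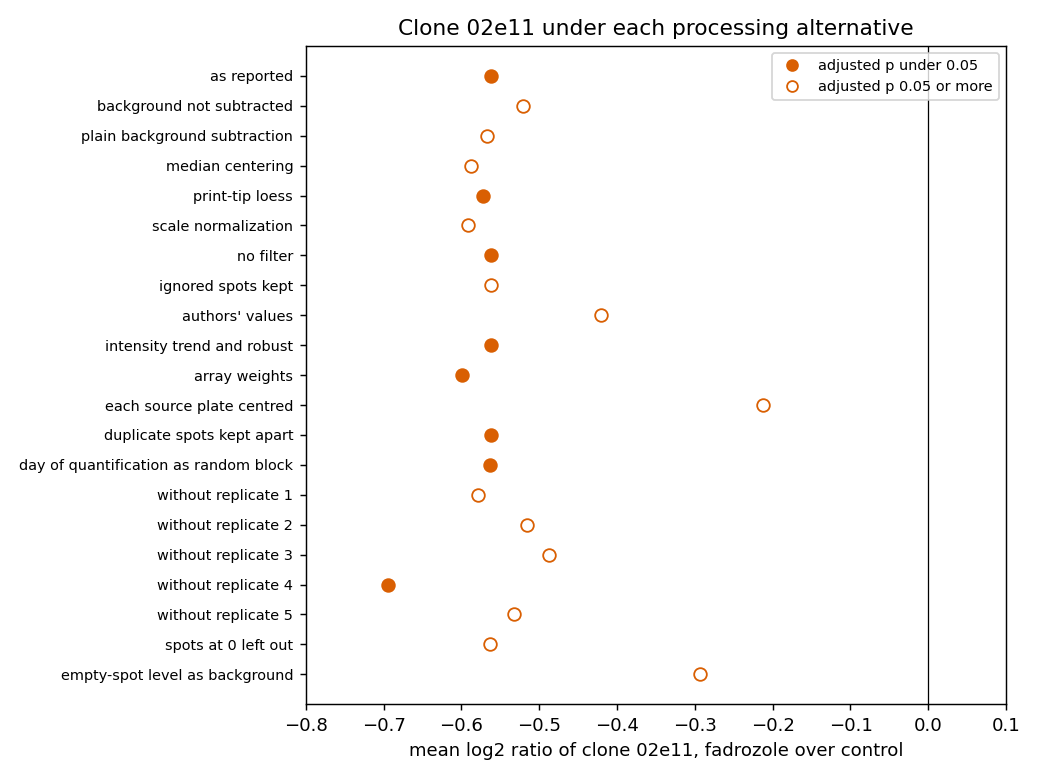
Mean log2 ratio of clone 02e11, fadrozole over control (horizontal axis), as reported and under each processing alternative (rows), filled where limma's adjusted p is under 0.05. Values lie between -0.69 and -0.21, and most alternatives give an adjusted p above the threshold. In several of those no clone of the whole array was called.

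The lists of related genes below were matched by words of the spot names and corrected from those names after the data were seen, dropping wrong matches and adding missed members. Of 34 clones of secretory granule and peptide processing genes, whose products package and release peptides like isotocin, 3 were called lower and 0 higher, beside 1.61% lower among all tested clones. The median was -0.03 beside -0.003 over all tested clones. All 3 calls were among the 6 clones on plate 02, where 24.5% of clones were called lower, and the 28 clones on other plates had 0 calls and a median of -0.01. Secretogranin II, a granule protein and the source of secretoneurin, was called in clone 02j04 at -0.48 ± 0.20 (limma adjusted p = 0.0374), while 02e10 was at -0.27 ± 0.23 and 02e09 at -0.09 ± 0.12 on the same plate. A secretogranin II clone of plate 17 (17o09) was at -0.40 ± 0.24 (limma adjusted p = 0.0786), at -0.14, -0.55, -0.73, -0.24 and -0.34 on arrays 1 to 5. The secretogranin II clones 51n02, 52l24 and 53n16 of 3 further plates were at 0.06 ± 0.21, -0.01 ± 0.22 and -0.03 ± 0.13. SNAP-25, which drives vesicle fusion, was called in clone 02n17 at -0.64 ± 0.34 and in clone 02e15, named snap25b, at -0.42 ± 0.14 (limma adjusted p = 0.0374 for both). The snap25b clone 03j17 was at -0.02 ± 0.30. Clones named SNAP-25B were at -0.44 ± 0.64 (59m23), -0.16 ± 0.15 (29o23), -0.12 ± 0.26 (19n13) and -0.08 ± 0.16 (61b19). Those named SNAP-25A were at -0.07 ± 0.16 (15p09) and 0.03 ± 0.05 (60h01).

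Of 32 clones of other neuropeptides and their receptors, 1 was called lower and 0 higher, beside 1.61% lower and 0.421% higher among all tested clones, with a median of -0.07. On plate 02 all 14 such clones were below 0, as were 359 of all 384 clones there. Their median of -0.16 lay beside -0.17 for the 4 isotocin clones of the plate and -0.34 for all 384. The called clone was PACAP, a peptide that stimulates adenylate cyclase (02g07), at -0.48 ± 0.14 (limma adjusted p = 0.0224). The clones named adcyap1b, the same kind of peptide, on that plate were not called, at -0.23 ± 0.44 for 02f23 (limma adjusted p = 0.530) and -0.14 ± 0.25 for 02a07 (limma adjusted p = 0.586). Chicken GnRH-II was at -0.31 ± 0.29 in clone 02g15 and -0.07 ± 0.19 in 02d17, and salmon GnRH at -0.10 ± 0.27 (02a17). Neuropeptide Y was at -0.43 ± 0.38 in clone 02h16 of plate 02 (limma adjusted p = 0.148). It was at -0.24 ± 0.20 in 20m18 of plate 20 and at 0.02 ± 0.28 in 61g06 of plate 61. Brain preprosomatostatin-14 (03k03), whose spot name adds that vector was not removed, was at 0.82 ± 1.10, with arrays between -0.69 and 2.22. Other somatostatin precursor clones were at 0.31 ± 0.48 (03n02) and 0.11 ± 0.35 (17n03).

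Of 18 clones of steroid synthesis and steroid receptors, the genes nearest to the target of fadrozole, 0 were called in limma and 1 had an unadjusted p under 0.05, beside 14.3% of all tested clones, and the median was 0.01. The brain aromatase clone 03k22 was at 0.29 ± 0.24 (limma adjusted p = 0.203) and another, 03p04, at -0.02 ± 0.18. Estrogen receptor 1 (02e13) was at -0.21 ± 0.33, ER beta1 (02c12) at -0.06 ± 0.07 and ERbeta2 (02f15) at 0.07 ± 0.20. As first written, the lists gave 2 lower calls among 34 secretory clones, 1 among 26 other neuropeptide clones with a median of -0.02, and 0 among 17 steroid clones with 2 at an unadjusted p under 0.05.

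Markers of tissue that could accompany the dissected telencephalon were not called. The pituitary list held growth hormone (02c08) at -0.33 ± 0.18 (limma adjusted p = 0.0986), the gonadotropin GTH-II (02g17) at -0.38 ± 0.32 (limma adjusted p = 0.149) and the thyrotropin beta subunit (03k06) at 0.05 ± 0.22. Of the 3, both clones of plate 02 had an unadjusted p under 0.05 in limma, as did 250 of all 384 clones of that plate. The median of the 3 was -0.33, beside -0.34 for all clones of plate 02. It was 0.05 for the list as first written, which held the receptor of prolactin-releasing peptide in place of GTH-II. Their mean was -0.10, -0.34, -0.31, -0.10 and -0.26 on arrays 1 to 5, lowest on array 2 like the mean of the isotocin clones. They exceeded the 95th percentile of empty spots at 7 of 30 spots in the fadrozole channel and 14 of 30 in the control channel. Their summed intensity ran from 741 to 2736 in the fadrozole channel and from 462 to 1330 in the control channel, with 1 control spot at 0. The part of pituitary tissue in the isotocin ratios was not tested.

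Of 18 globin clones, marking blood, 0 were called. Their mean was 0.01, -0.02, -0.48, 0.01 and -0.46 on arrays 1 to 5, low on arrays 3 and 5, where 02e11 was at -0.86 and -0.68. The summed intensity of the globin spots ran from 5285 to 20487 in the fadrozole channel and from 2720 to 9586 in the control channel. The part of blood in the ratio of 02e11 was not tested, and array 2, where 02e11 was at -0.74, had globins near 0. Of 16 glial clones 0 were called. The word list called glial held ependymin, whose cell type was not examined here, but missed the clones named EPD. On plate 02, 3 of 5 clones named EPD-II, 1 of 5 named EPD-I and 0 of 5 named EPD were called lower. Clone 02k11 (EPD-I) was at -0.64 ± 0.26 (limma adjusted p = 0.0208). Clone 02d23, an EPD entry with a remark in its name, was also called lower. The EPD clones of plate 03 were not called. Of 27 neuronal clones 3 were called lower, beside 1.61% of all tested clones, and all 3 lay on plate 02, where 24.5% were. The neuronal word list missed clones named snap25b, among them 02e15 of plate 02, which was called lower.

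By likeness over the 5 arrays, the described clones whose log2 ratios followed the mean of the 6 isotocin clones most closely were selenoprotein Pa, a selenium carrier (19j24, Pearson's r = 0.99), LIM domain kinase 2, a regulator of actin (15l08, 0.99), the H/ACA ribonucleoprotein subunit 3 (55j11, 0.99), the 26S protease subunit 6B (19e18, 0.99) and SUMO-3 (18m09, 0.98). None of these 5 clones was called, and their mean log2 ratios ran from -0.29 to 0.01. Of 3505 described clones compared over 5 arrays, 60 (1.71%) had r above 0.9 and 6 had r above 0.97. Over so few arrays unrelated clones can also reach such r, and shared regulation was not tested. The described clones of plate 02 nearest to 02e11 in mean log2 ratio were an entry named gf A2 rapamycin (02g09), GAPDH (02l18), glucose phosphate isomerase a (02m13), aldolase C (02m03) and a ChaC-like protein (02o21), all between -0.57 and -0.55. In the order of all clones on that plate, 02e11 stood between clone 02l12 and clone 02e12, neither named for a gene, both at -0.56.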

How the data were processed

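The authors deposited 1 scanner table per array, with linear intensity and local background values per spot and channel, not background-subtracted per the file headers. They also deposited 1 processed value per spot on a scale like log2, with no statement of base, centring or scaling. Across spots these values had r of -0.996 to -1.00, and slopes of -0.73 to -0.81, with log2 ratios computed here from the intensities. They therefore run as control over fadrozole and were used with the opposite sign. Column medians were -0.0387 to 0.0363.

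Intensities were corrected by normexp (offset 50) and normalized by loess (span 0.3) over clone spots in limma 3.58.1 (R 4.3.3), leaving out control, empty and ignored spots (0 to 29 per array). Duplicate spots were averaged. A clone was tested if 0.5 or more of its spots exceeded the local background by 2 of its SDs in either channel on 3 or more arrays. The mean was tested against 0 with limma (4 residual and 5.24 prior degrees of freedom), two-sided, with Benjamini-Hochberg adjustment over 8078 clones. Differences from plate medians used exact sign-flip permutation. Loess normalization, averaging and the limma fit were checked on simulated data, without the background correction and the clone filter. Named were every isotocin clone, the members with the smallest p of each list and fixed names, and the nearest clones by r and by mean. The members and lists were chosen with earlier results of these data known. The lists of related genes and of pituitary hormones were also corrected from the spot names after the data were seen. Those for blood, glia and neurons were left as first written. Replicate numbers only name the arrays (slides 4, 14, 22, 33 and 44). Symbols of the goldfish RefSeq table matched 0 of the 6 clones, and no sequence or genome position was used. Alternatives are listed in the closing section.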

Additional observations from a re-analysis of the deposited data

Results flagged for a closer look

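Of 12 sets of 5 arrays examined (each isotocin clone as a log2 ratio and minus its plate median), 2 held 1 array far from the others, where chance gives about 1 in 20. For clone 03f07 it was array 3, at 0.051 where the other arrays lay between -0.13 and -0.08. No spot of this clone exceeded the 95th percentile of empty spots, and on array 3 one of its control spots was listed at an intensity of 0. For clone 02k01 minus its plate median it was array 2, at -0.19 where the others lay between 0.33 and 0.49.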

How the results depend on the processing

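Clone 02e11 stayed below 0 in the 20 alternative fits run and passed the threshold in 7 (print-tip loess, no filter, an intensity trend with robust fit, array weights, duplicate spots kept apart, the day of quantification as a random block, and without array 4). It missed the threshold at -0.52 with background not subtracted (limma adjusted p = 0.153), -0.57 with plain subtraction (0.186), -0.59 with median centering (0.0521), -0.59 with scale normalization (0.0851), -0.56 with ignored spots kept (0.0521), -0.42 with the authors' values (0.146), -0.21 with each source plate centred (0.445), -0.56 with spots at 0 left out (0.0658) and -0.29 with the empty-spot level as background (0.692). An exact sign-flip permutation of its -0.56 gave 0.0625, the smallest p that 5 arrays allow, so that it could not pass. Leaving out 1 array gave -0.69 to -0.49. Leaving out spots at 0 and the empty-spot level were added after seeing the data. The fit with duplicate spots kept apart used a consensus correlation of 0.09 between the 2 spots. It thus counted spots of one array almost as separate arrays, so that its p is too small to be read as the others are. None of the other 5 clones passed under any alternative. Clone 03f07, at -0.08 as reported, was at -0.29 with background not subtracted and -0.32 with plain subtraction. It was at -0.22 with the authors' values, -0.40 with the empty-spot level and -0.04 with each plate centred. With each plate centred, 02e01 was at 0.16, 02j22 at 0.19 and 02k01 at 0.29. Clone 02k01 was also above 0 with background not subtracted (0.064), with the authors' values (0.0022) and with the empty-spot level (0.13), and ran from -0.14 to 0.076 when 1 array was left out. Clone 61l10 then ran from -0.22 to 0.010, and minus its plate median from -0.22 to 0.016. The difference between plates was 0.077 with background not subtracted, 0.00045 with plain subtraction and 0.19 with the empty-spot level, and 02j22 minus its plate median was -0.094 there. The cause of these changes was not tested. The mean over the 6 clones ran from -0.27 to -0.11.

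The number of clones called, 164 in the reported fit, was 0 with background not subtracted (limma, 1187 at an unadjusted p under 0.05), plain subtraction (1042), the authors' values (1125), each plate centred (910), plates 02 and 04 left out (741) and the empty-spot level (424). It was 92 with scale normalization, 109 with spots at 0 left out, 401 with duplicate spots kept apart, and 308 of 1383 tested with the stricter filter, which kept no isotocin clone and turned the split to 190 higher and 118 lower, against 34 and 130. Leaving out 1 array gave 0 to 174 calls, with 0 without array 2 (1014 at an unadjusted p under 0.05) or 3 (1002), 1 without array 1 and 99 without array 5. Each ratio already pairs exposed fish with the control pool within an array. No further pairing was possible because there is 1 group of arrays. Array 1 was quantified on another day than arrays 2 to 5, and that day as a random block left 02e11 at -0.56 (limma adjusted p = 0.0387). Signal over empty spots limits what the 5 other clones can show.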
